A study of Mus musculus with 60 samples.

Results

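Genes of the pre-mRNA splicing machinery and of the main families of splicing regulators were followed through the striatum of 60 mice. Members were taken by name: every gene of the deposited gene table whose symbol, looked up from its Ensembl identifier, began with Srsf, Hnrnp, Tra2, Sf3, Snrp, U2af, Prpf or Rbm. The rule gave 75 of 9066 genes, and these held 930 of the 114691 exon rows of the exon table. They comprised 11 SR genes with the Tra2 pair, 15 hnRNP genes, 8 Snrp genes, 7 SF3 genes, 1 gene of the U2af name, 11 PRPF genes and 22 RBM genes. All 75 averaged at least 10 normalized reads per mouse, so the filter on low values removed none. Of 32 well-known splicing genes listed for comparison, 22 were in the table. Srsf1, Hnrnpa1, Hnrnpf, Snrpn, U2af1, U2af2 and Rbm3 are among the genes not analysed here.

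The mice were HS-CC animals, an outbred heterogeneous stock derived from the founder strains of the Collaborative Cross, so each mouse carried its own mixture of founder haplotypes. Polyadenylated RNA of hand-dissected striatum was sequenced, with 1 library per mouse. The labels gave each animal a sex and a behavioural phenotype, responder or non-responder in a test of catalepsy, the immobility that the dopamine receptor blocker haloperidol induces. Of the 28 females, 15 were responders and 13 were not, and of the 32 males, 15 were responders and 17 were not. Per the study's methods all of the mice descended from generations bred selectively for their reaction to haloperidol. Ages were not given in the sources used here.

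Introns are removed from pre-mRNA by the spliceosome, which assembles from small nuclear ribonucleoproteins on the splice sites of each intron. SR proteins bind exonic sequences and recruit the spliceosome, whereas hnRNP proteins coat nascent RNA and often act against exon inclusion, so the balance of both families sets which exons are kept. Many SR and hnRNP genes also limit their own output by splicing in an exon or keeping an intron that carries a premature stop codon, which sends the transcript to nonsense-mediated decay (NMD). Neurons make unusually wide use of alternative exons, and the striatum, built mainly of GABAergic projection neurons, is the site where haloperidol produces catalepsy.

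Values were reads multiplied by 1 factor per library that equalises upper quartiles, and are called normalized reads. Totals recovered over the 9066 genes of the table, which are not the whole depth of the libraries, ranged from 4913122 to 21872744 reads per mouse with a median of 14520042. Each library was that of a separate mouse. A set of 17 libraries, called shallow, held 4913122 to 9507322 of these reads, and the other 43 began at 12051239. The shallow libraries were spread over the groups, with 4 in each group except the male non-responders, which had 5. A 3′ bias index was computed for each mouse from 5209 genes with at least 5 exon rows, as the median slope of exon level toward the 3′ end relative to the mean of all mice. A high index goes with degraded polyadenylated RNA. It was highest in the mice numbered 63, 5, 4 and 62 in the labels (a female responder, a female non-responder, a male responder and a male non-responder), at 1.478, 0.907, 0.683 and 0.477, and the next mouse stood at 0.187. The mean index of responders was 0.0569 above that of non-responders (two-sided permutation p = 0.475). Of 11 markers of striatal projection neurons, 8 were in the table, with a median summed level of 99319 normalized reads in responders (66056 to 124720) and 94776 in non-responders (61613 to 141200). Cortical markers, 2 of 5 in the table, summed to a median of 2019 in responders (267 to 4533) and 2153 in non-responders (864 to 4372), a wide range over mice. In whole tissue, fewer cells of a type and less RNA per cell cannot be told apart.

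Together the 75 genes took 0.614% to 0.835% of a mouse's normalized reads over the 9066 genes of the table, with a median of 0.706%. The hnRNP genes held the largest part, a median of 0.281%, followed by the RBM genes at 0.131%, the SR genes at 0.104%, the PRPF genes at 0.0901%, the SF3 genes at 0.0833% and the Snrp genes at 0.0155%. Snrp genes encode small proteins and have short transcripts. Per kilobase of annotated exon, the family medians of the mean level were 345 normalized reads for hnRNP, 298 for SR, 197 for SF3, 150.4 for PRPF, 113 for RBM and 110 for Snrp genes. Over the 75 members the median was 150.4 against 136.1 over all genes, and 18 of 75 stood above the 75th percentile. Lengths were those of all GENCODE M21 exons, retained-intron and NMD transcripts included, whereas the authors counted reads on older Ensembl models. The order of genes per kilobase therefore also depends on the annotation. The SDs given below are the spread of a gene over mice and not the error of a comparison between genes.

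Among hnRNP genes the highest levels per kilobase belonged to Hnrnpa0 at 928 ± 118 (SD, n = 60) and to Hnrnpa2b1 at 871 ± 107. Hnrnpa2b1 encodes an RNA-binding protein that also sorts transcripts into neuronal granules, and its gene value ran from 4395 to 7576 normalized reads with a median of 5616. Hnrnpu, a nuclear matrix protein, had the largest gene value, 4808 to 8143 with a median of 6112. Hnrnph1, which binds runs of G, had a median of 3372, Hnrnpk, which binds runs of C, one of 1614 and Hnrnpm one of 1073. The lowest hnRNP level per kilobase was that of Hnrnpr, at 23.7 ± 3.75.

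Among SR genes the per-kilobase order was led by Srsf2 at 732 ± 81.9 and Srsf7 at 564 ± 91.3. Tra2b, a sequence-specific splicing activator, was lowest at 26.6 ± 6.73. Its gene value ran from 110 to 397 normalized reads (median 232), whereas that of its paralogue Tra2a ran from 734 to 2000 (median 1089). Srsf5 lay between 1175 and 3012 (median 1883), Srsf6 between 1620 and 2489 (median 1978) and Srsf11 between 1813 and 3545 (median 2522).

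The core of the spliceosome was represented by Sf3b1, the subunit that contacts the branch site, with a gene value of 3813 to 6357 and a median of 4880. Sf3b1 and Sf3b2 stood at 436 ± 49.6 and 424 ± 52.9 per kilobase, and Sf3a3 was the lowest of its family at 77.3 ± 10.6. Prpf8, the large protein at the catalytic centre, led the PRPF genes at 524 ± 106 per kilobase, followed by Prpf6 at 205 ± 28.2, and Prpf3 was lowest at 46.6 ± 5.92. In the RBM family, Rbm39 stood highest at 469 ± 61.9, Rbm14 next at 249 ± 39.5, and Rbm20, best known as a splicing regulator of heart muscle genes, was lowest at 15.9 ± 3.73. The other textbook members of the core and its partners lay between these, with median gene values of 1277 for Sf3a1, 1337 for Prpf19 (the ubiquitin ligase of its own complex), 512 for Snrpd3, 1482 for Rbm25 and 962 for Rbmx. Snrpb, a Sm core protein, reached 257 ± 38.7 per kilobase and Snrpf 37.7 ± 9.68. A gene named Snrpert was listed at 1346 ± 407 per kilobase, but it is annotated as a single-exon processed pseudogene related to Snrpe, and reads of near-identical copies could be split between them. The values of Rbm8a2, Hnrnpa3 and Snrpf are uncertain for the same reason. The only member of the U2af name, U2af1l4, stood at 95.6 ± 16.2.

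**Figure D1:**
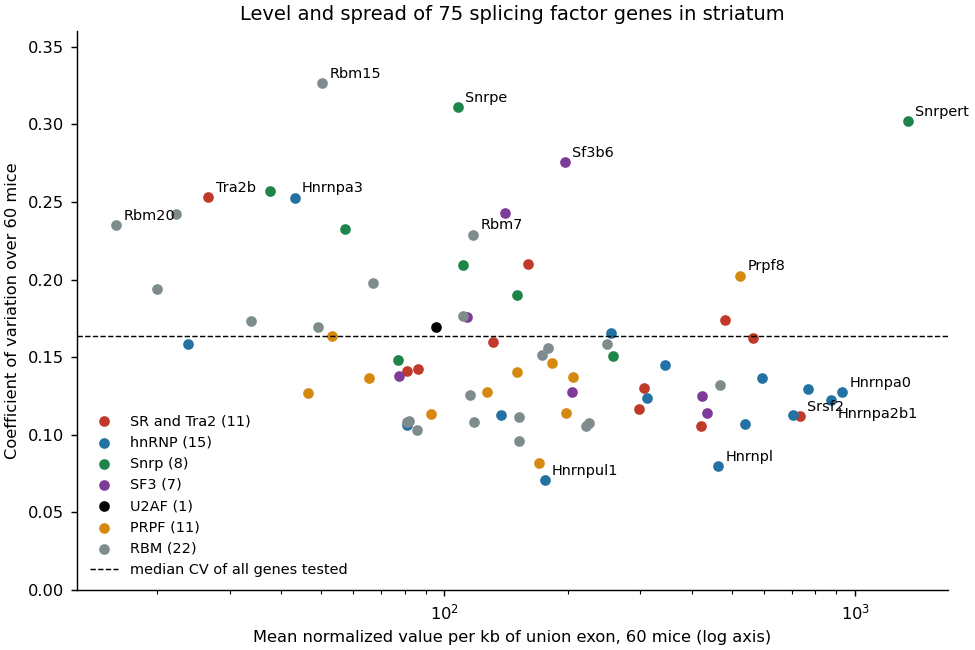
Mean level per kilobase of annotated exon in normalized reads (x axis, log scale) against the coefficient of variation over 60 mice (y axis) for the 75 members, coloured by family. The hnRNP genes have the highest family median level (345) and the lowest family median CV (0.123), with Hnrnpr (23.7 per kilobase) and Hnrnpa3 (CV 0.253) away from them, and Rbm15, Snrpe and Snrpert lie highest on the y axis, at 0.327, 0.311 and 0.302.

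The members were less variable over mice than most genes. The median coefficient of variation (CV) was 0.141 over members and 0.163 over all genes, and 49 of 75 (65.3%) lay below the median of all genes. Members also had higher gene values, with a median of 903 normalized reads against 636 over the 9066 genes. Among genes averaging at least 500, the median CV was 0.130 over 51 members and 0.145 over 5198 genes. By family the median CV was 0.123 for hnRNP, 0.136 for PRPF, 0.138 for SF3, 0.142 for SR, 0.153 for RBM and 0.221 for Snrp genes. The steadiest members were Hnrnpul1 (0.0706), Hnrnpl (0.0795) and Prpf18 (0.0819), and in the other families Rbm17 (0.0960), Srsf6 (0.106), Sf3b1 (0.114) and Snrpa1 (0.148). Among members averaging at least 50 reads, the largest CVs were those of Rbm15 (0.327), Snrpe (0.311), Snrpert (0.302), Sf3b6 (0.276), Tra2b (0.253), Hnrnpa3 (0.253), Sf3b5 (0.243), Rbm19 (0.242), Rbm20 (0.235) and Snrpd1 (0.232). Counting alone would give Rbm15 a CV of 0.0599 and Tra2b one of 0.0723, so most of their spread was not counting error, whereas the 0.257 of Snrpf lay near its counting value of 0.189.

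The main contrast asked whether splicing genes differed between responders and non-responders. No member did at an adjusted p under 0.05 (limma on log2 values with sex as a term, Benjamini-Hochberg over 8535 genes), where 9 genes of the whole table (0.105%) passed. At an unadjusted p under 0.05 there were 5 of 75 members against 6.49% of all genes. Tests on the recovered reads also called no member, with 6 members at an unadjusted p under 0.05 by edgeR (6.51% of all genes) and 6 by DESeq2 (6.78%). These tools called 7 genes (0.082%) and 25 genes (0.293%) of the table. In 52 of 75 members the fitted difference was above 0, against 47.9% of all genes, and the median difference was 0.03 on the log2 scale. By family, the difference was above 0 in 9 of 11 SR genes, 12 of 15 hnRNP genes, 18 of 22 RBM genes, 7 of 11 PRPF genes, 3 of 7 SF3 genes and 3 of 8 Snrp genes. Genes of a family share libraries and are correlated, so these counts are descriptions.

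**Figure D2:**
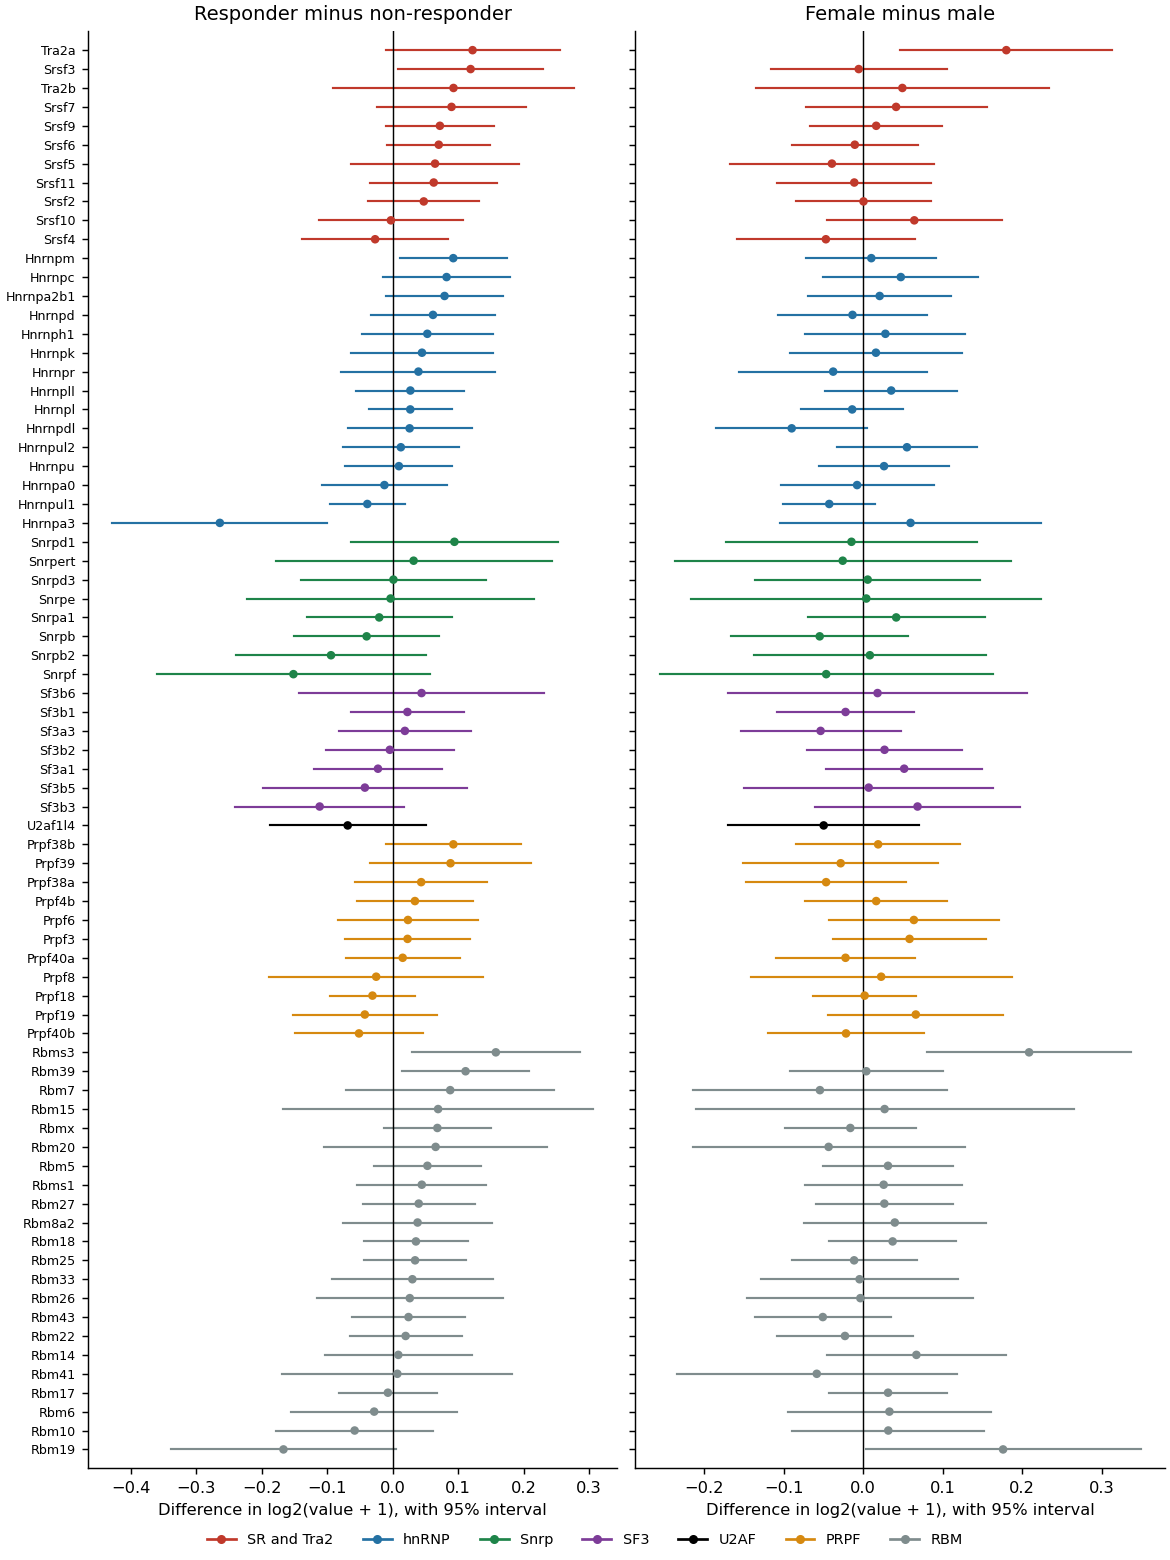
Fitted log2 differences of the 75 members by catalepsy response (responder minus non-responder) and by sex (female minus male), with each family shown separately. None passed an adjusted p of 0.05, and the response difference furthest from 0 was that of Hnrnpa3 at -0.26.

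Hnrnpa3 encodes an hnRNP of the A/B type that binds RNA in the nucleus and in neuronal granules. Its value ran from 168 to 413 normalized reads in the 30 non-responders (median 261) and from 158 to 301 in the 30 responders (median 199). The groups overlapped over most of their range, and the responder values ended lower. The fitted difference was -0.26 (SE 0.082, 95% interval -0.43 to -0.10, p = 0.00207, limma adjusted p = 0.249). The medians were 274 in female non-responders, 200 in female responders, 242 in male non-responders and 196 in male responders, so the responder median was the lower in both sexes.

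Of the 9 exon rows of Hnrnpa3 only rows 7 and 9 had enough reads to be tested. Row 7 held 102 to 190 reads in non-responders (median 136) and 92 to 183 in responders (median 137.5). Row 9 (start at base 75503291 of chromosome 2, NCBI m37), the last row of the gene, held 28 to 210 reads in non-responders (median 78.5) and 30 to 119 in responders (median 50). The medians parted in row 9 and not in row 7, and in females the row 9 medians were 124 in non-responders and 53 in responders, against 71 and 49 in males. The highest row 9 value of each phenotype came from a shallow library. Among the 43 deeper mice row 9 ran from 28 to 185 (median 58) in non-responders and from 30 to 115 (median 47) in responders. Hnrnpa3 as a gene was higher in the shallow libraries by 0.44 (SE 0.072, limma adjusted p = 1.09e-06). Within the deeper mice its response difference was -0.25 (p = 0.00342, limma adjusted p = 0.377). With the shallow set as a term and without mice 4, 5, 62 and 63, an alternative chosen after seeing the data, it was -0.26 with a limma adjusted p of 0.0483, the only member called there, beside 46 genes of the table (0.538%). Over all 13 alternatives the difference stayed between -0.31 and -0.22 and the adjusted p between 0.0483 and 0.99986.

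Rbms3, a single-stranded nucleic acid binding protein, ran from 471 to 983 normalized reads in non-responders (median 640) and from 453 to 989 in responders (median 735), and the ranges were nearly the same. Its difference was 0.16 (95% interval 0.03 to 0.29, p = 0.0170, limma adjusted p = 0.543). Rbm39, a splicing cofactor related to U2AF, lay between 2236 and 3997 (median 3091) in non-responders and between 2805 and 4441 (median 3340) in responders, a difference of 0.11 (95% interval 0.01 to 0.21, p = 0.0244, limma adjusted p = 0.635). These groups overlapped, and the highest Rbm39 value came from mouse 63, the library of strongest 3′ bias. Hnrnpm lay between 876 and 1277 (median 1041) and between 922 and 1414 (median 1104), a difference of 0.09 (p = 0.0271, limma adjusted p = 0.654). Srsf3, the smallest SR protein, lay between 637 and 1233 (median 986) in non-responders and between 843 and 1777 (median 1024) in responders, a difference of 0.12 (p = 0.0352, limma adjusted p = 0.692). Its highest value was again that of mouse 63, and the groups overlapped. The next smallest p-values belonged to Rbm19 (-0.17, p = 0.0575), Tra2a (0.12, p = 0.0717) and Prpf38b (0.09, p = 0.0778).

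**Figure D3:**
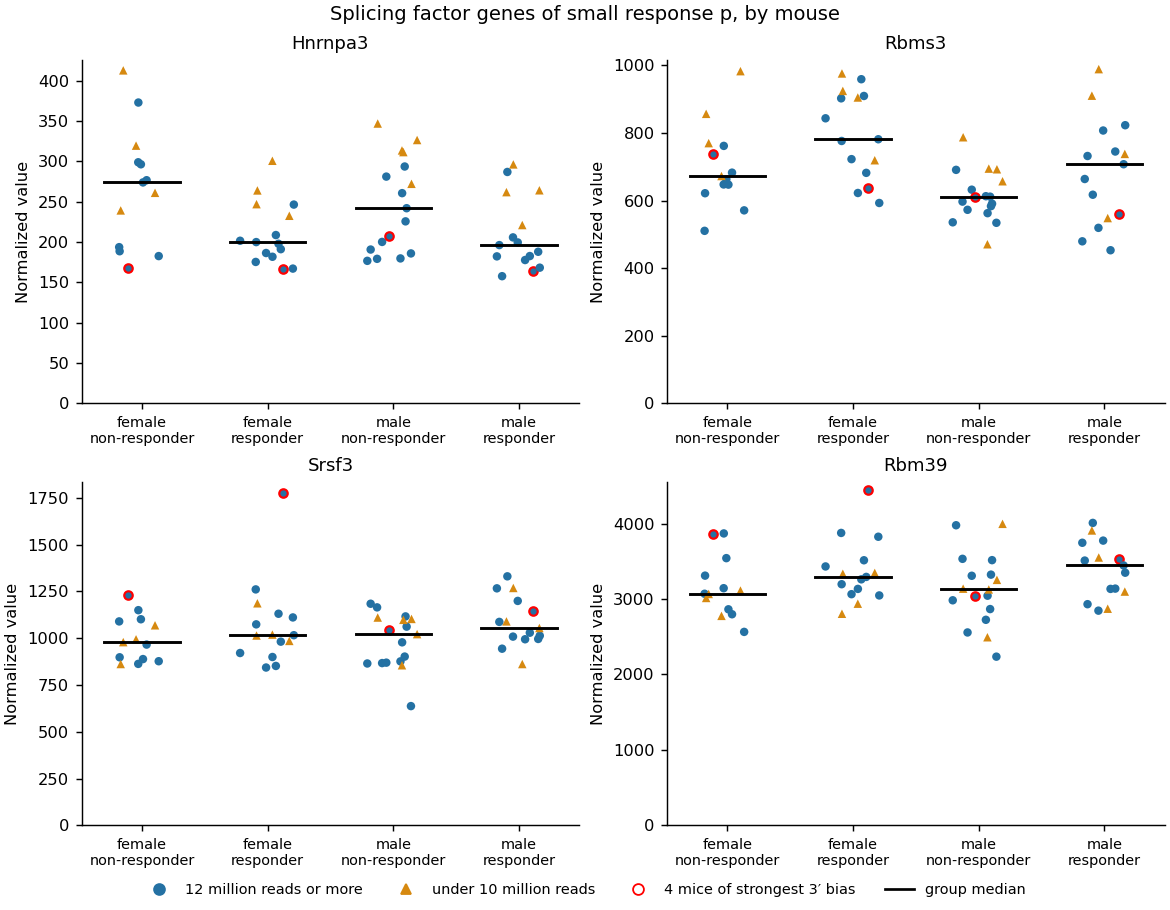
Normalized reads of Hnrnpa3, Rbms3, Srsf3 and Rbm39 in each of 60 mice by sex and phenotype; triangles are libraries under 10000000 reads, red edges mark the 4 mice of strongest 3′ bias and bars are group medians. All groups overlap, and the Hnrnpa3 medians of responders (200 and 196) lie under those of non-responders (274 and 242).

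Genes of the pathway outside the name rule were tested in the same fit. Of 50 further spliceosome genes 34 were in the table, of 14 SR protein kinases and SR-related genes 13, and of 13 genes of the exon junction complex and NMD 12. None passed the response test by limma. At an unadjusted p under 0.05 stood 0 of 34, 1 of 13 and 1 of 12, where 6.49% of all genes did. These were Clk1, a kinase that phosphorylates SR proteins (0.17, p = 0.0192, limma adjusted p = 0.575), and Eif4a3, the helicase of the exon junction complex (-0.14, p = 0.0328, limma adjusted p = 0.680).

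No member differed between sexes at an adjusted p under 0.05 (limma), beside 3 genes (0.0351%) of the table. At an unadjusted p under 0.05 there were 3 members, against 2.04% of all genes, and edgeR and DESeq2 called none, with 3 and 4 at that level against 2% and 2.13%. Rbms3 averaged 753 ± 133 (SD, n = 28) in females and 648 ± 125 (SD, n = 32) in males, a difference of 0.21 (95% interval 0.08 to 0.34, p = 0.00191, limma adjusted p = 0.99998). Tra2a averaged 1186 ± 257 and 1036 ± 185 (difference 0.18, p = 0.00891), and Rbm19 averaged 125 ± 30.1 and 111 ± 25.6 (difference 0.18, p = 0.0461). The differences of Hnrnpdl, Hnrnpul1, Hnrnpul2, Prpf3 and Prpf19, the next in p, lay between -0.09 and 0.07.

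The response difference was also tested against sex. No member and no gene of the table (0%) passed the interaction test by limma, edgeR or DESeq2, and no member reached an unadjusted p under 0.05 by any of them, against 0.562%, 0.516% and 0.562% of all genes. The smallest p-values were 0.125 for Prpf18 (-0.10) and 0.142 for Prpf40b (0.14).

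The exon table gave a value to each row of a union exon model, and 888 of the 930 member rows could be matched to GENCODE exons by the spacing of their starts. Short exons were poorly covered. Of 217 matched rows whose longest annotated exon was under 100 bases, 70 (32.3%) were at 0 in every mouse and 167 (77.0%) averaged under 10 reads, against 21 of 376 rows (5.59%) at 0 for 100 to under 200 bases and 2 of 117 (1.71%) for 500 bases or more. Per 100 bases, the median row took 0.346% of its gene in the shortest class and 2.01%, 1.84% and 1.47% in the longer ones. The reads had been aligned with an aligner that does not place reads across splice junctions, and its part in these values was not tested. Over all families, 102 of 930 member rows (11%) were at 0 in every mouse, against 14.1% of all rows, and 39 members had at least 1 such row. In 52 of 69 members with several rows the largest row was the last, at the 3′ end, and in 30 it held over 50% of the gene. The last row took 91.2% of Rbm18 and 82.5% of Hnrnpk, whereas the largest of the 42 rows of Prpf8 took 5.72%.

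Several SR and hnRNP genes had rows that the annotation places only in transcripts that make no protein. Of the 888 matched rows 35 lay outside every protein-coding transcript, and 16 of them, in 12 genes, averaged at least 10 reads. Some of these rows carry a premature stop codon, and whether they serve the self-limiting splicing described above was not tested. The sequences around the stop codons that could be read are given here, from GENCODE M21 transcripts of GRCm38. They run 5′ to 3′ on the strand of the gene. Capitals mark the stop codon that ends the NMD reading frame, and bases are cut off at the ends of the exon. They are, in order, in Tra2b (chr16:22259169-22259198, minus strand), Srsf4 (chr4:131884373-131884402, plus), Hnrnpl (chr7:28817376-28817404, plus), Prpf39 (chr12:65043543-65043563, plus), Rbm39 in row 7 (chr2:156174114-156174143, minus) and in row 20 (chr2:156152463-156152490, minus), and Rbmx (chrX:57385205-57385221, minus).
Tra2b row 2: aagctcaggaataagTGAagctgaaatttg
Srsf4 row 2: tctcatgccccagctTAGagtgcttcaccc
Hnrnpl row 9: gtgctaactcactgtTGAagcgtccaatg
Prpf39 row 4: gtgcgtTAAccctctacagtt
Rbm39 row 7: ctctccatctccttgTGAttggagtgtggg
Rbm39 row 20: tgggatttggtcagaTAAtatgcttacg
Rbmx row 10: gtTGAatctaatggtca

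Tra2b row 2, which holds the TGA printed above, took a median of 36.8% of the gene's reads, from 4.32% to 47.99% over mice. Among the 56 mice without the strongest 3′ bias the lowest share was 25.8%. The medians were 35.1% in female non-responders, 36.9% in female responders, 36.2% in male non-responders and 37.2% in male responders. The 4 groups overlapped almost completely. The row averaged 86.9 reads, while rows 4 and 8 of the gene were at 0 in every mouse. Of the gene's 10 rows, 7 averaged under 10 reads, so the share is taken over few well-counted rows. The longest annotated exon of row 2 belongs to a retained-intron transcript and has 1198 bases. The exons of NMD transcripts that hold the TGA have 276 or 397 bases, so the share is not that of these exons.

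Srsf11 row 4, annotated only in retained-intron transcripts, took a median of 32.1% (9.39% to 38.8%, and at least 26.3% without the 4 mice). The exon matched to this row has 64 bases, but a retained-intron exon of 2122 bases overlaps it. How much of the longer exon the row counted was not tested. The group medians of Srsf11 row 4 lay between 31.2% and 32.9%. Srsf4 row 2, with the TAG above, took 10.6% (4.59% to 19.7%), and row 3, annotated in NMD and retained-intron transcripts, took 21.9% (12.3% to 33.9%). The group medians of Srsf4 lay between 10.3% and 10.8% for row 2 and between 20.7% and 23.1% for row 3. Srsf10 row 3, in processed transcripts only, took 8.42% (1.15% to 14.3%). In the hnRNP and RBM families the shares were smaller, with a median of 2.30% for Hnrnpl row 9, 1.43% for Rbmx row 10, 1.45% for Rbm39 row 7 and 0.59% for Rbm39 row 20, but 25.9% (18.9% to 36.05%) for Rbmx row 11, the long last exon of its NMD transcript. A row of a union model also counts reads of any intron-containing precursor RNA that overlaps it, so a share is not the share of finished NMD transcripts.

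**Figure D4:**
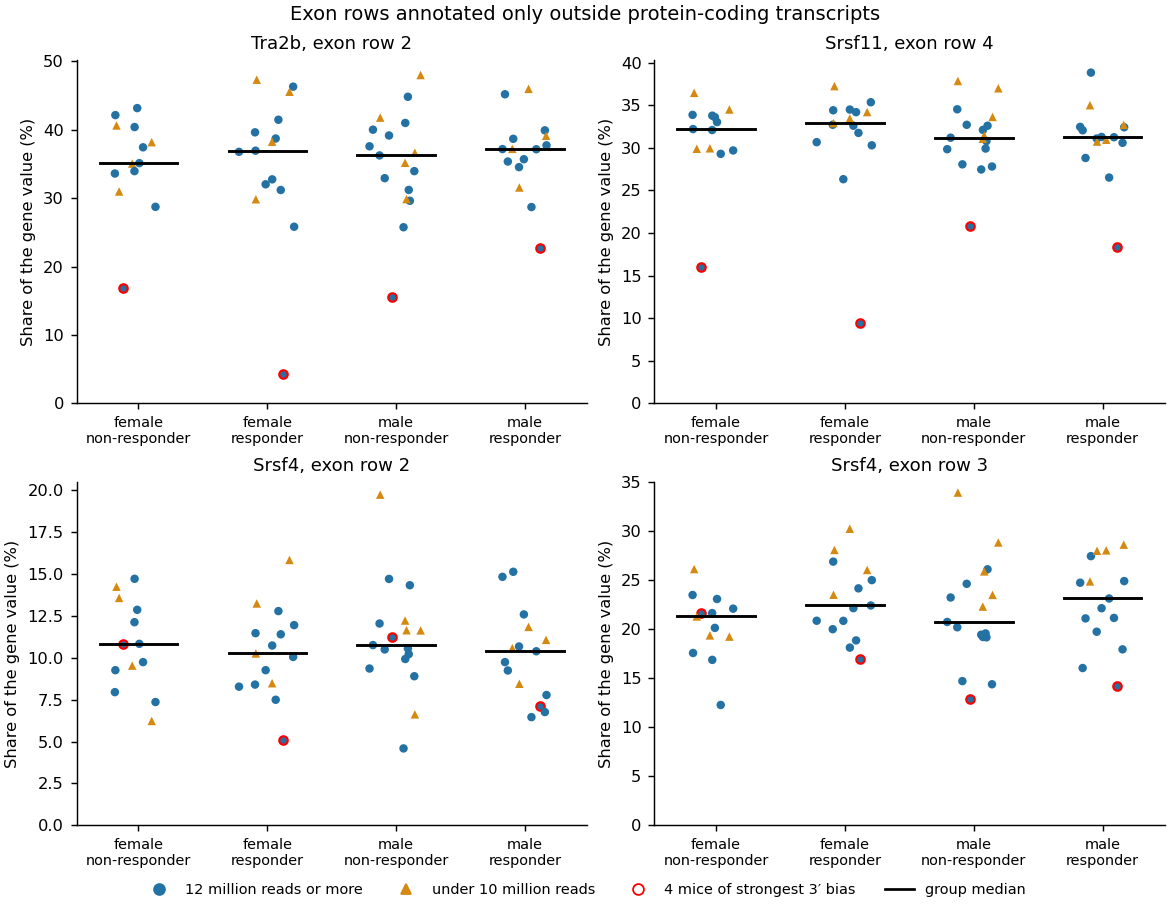
Percent of the gene's reads in rows annotated only outside protein-coding transcripts, for Tra2b row 2, Srsf11 row 4 and Srsf4 rows 2 and 3, in each of 60 mice by sex and phenotype. Group medians lie within 35.1% to 37.2% for Tra2b and 31.2% to 32.9% for Srsf11, and the lowest points of these 2 rows, but not of the Srsf4 rows, belong to mice of strong 3′ bias.

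Exon usage, the level of a row relative to the other rows of its gene, was tested between responders and non-responders by limma diffSplice. None of 623 member rows passed an adjusted p of 0.05, beside 88 of 66690 rows (0.132%) of the table, and 22 member rows had an unadjusted p under 0.05 against 2.5% of all rows. The smallest p was that of Prpf39 row 4, which holds the TAA printed above. It took 0.954% to 3.81% of the gene in non-responders (median 2.46%) and 0.474% to 4.42% in responders (median 1.97%), and the groups overlapped. The row held only 3 to 32 normalized reads per mouse (median 14), so each share rests on few reads. Its median share was 2.09% in deeper and 3.04% in shallow libraries, further apart than the medians by response. The response difference of this row was -0.36 (SE 0.109, p = 0.000939, limma adjusted p = 0.316). Rows 7 and 9 of Hnrnpa3 followed, with 0.61 and -0.61 (SE 0.197, p = 0.00253, limma adjusted p = 0.564). With only 2 rows tested these are 1 measurement, and row 9 took a median of 33.4% of the gene in non-responders and 25.7% in responders. Srsf4 row 1 (-0.29, p = 0.00663) and Rbm27 row 17 (0.37, p = 0.00833) came next. Over all alternatives the adjusted p of these rows lay between 0.0603 and 1.

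Member rows varied over mice beyond counting error about as much as other rows. The variance of a row's share was a median of 2.83 times its counting value over 332 member rows and 2.72 times over 30355 rows of all genes. The 10 rows furthest above counting included the last rows of several genes, whose share was high in mice of strong 3′ bias. Row 24 of 24 of Rbm39 took 35.95% to 71.2% of the gene (median 43.7%), with the highest share in mouse 63 and none above 47.8% without the 4 biased mice. Row 14 of 14 of Srsf11 took 34.7% to 76.5% (median 45.4%) and at most 51.2% without them. Row 42 of 42 of Prpf8 took 3.50% to 21.8% (median 4.98%) and at most 6.60% without them. Row 15 of 16 of Hnrnpu ran from 22.1% to 50.9% (median 26.7%), row 12 of Hnrnph1 from 19.8% to 46.2% (24.5%) and row 14 of Hnrnpul2 from 51.1% to 76.0% (54.5%). Row 18 of 18 of Hnrnpk (69.3% to 91.3%, median 85.5%) kept most of its excess without the 4 mice, at 33.1 times the counting variance against 36.1 times with them. Hnrnpa2b1 row 12 (36.7% to 61.2%, median 46.9%), Srsf11 row 4 and Hnrnph1 row 5 (36.9% to 64.8%, median 59.1%) completed the list, and the last 2 were lowest in mouse 63.

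Gene values moved with the 3′ bias as well, and summed markers of several cell types were also high or low in the same mice, with no test made. In the 4 mice of strongest bias the 5 oligodendrocyte markers in the table (of 6) summed to 190190 to 243710 normalized reads, against 90013 to 265410 in the other mice (median 146520). The 4 astrocyte markers (of 6) summed to 67028 to 99787, against 78931 to 165660 (median 116930), and the 8 projection neuron markers to 109600 to 141200, against 61613 to 127130 (median 94776). The 4 microglial markers (of 5) summed to 4942 to 6739, against 2862 to 6661 (median 4139). No marker in the table was at 0 in every mouse, and the part of cell composition in the changes of the members was not tested. With the index as a term beside response and sex, 53 of 75 members passed (limma, adjusted p under 0.05), 35 higher and 18 lower with more bias, against 76.9% of all genes (39.6% higher, 37.4% lower). All 8 Snrp genes were higher, as were 4 of 7 SF3 genes, 6 of 11 SR genes with 1 lower, and 7 of 15 hnRNP genes with 4 lower, whereas 11 of 22 RBM genes were lower and 7 higher. Sf3b5 read 1179, 882, 797 and 825 in mice 63, 5, 4 and 62 and 337 to 680 in the others (median 524). Snrpe read 286, 229, 205 and 249 in these mice and 81.9 to 247 in the others (median 135). Rbm7, a subunit of a nuclear exosome adaptor, read 1036, 824, 759 and 906 against 363 to 801 (median 541).

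On the lower side, Rbm15, which guides the writing of N6-methyladenosine on RNA, read 206, 158, 208 and 162 in these mice against 243 to 718 in the others (median 349). Rbm41 read 43.4, 56.4, 85.4 and 98.4 against 100.3 to 195 (median 135), with no overlap. Prpf8 read 1878, 2518, 2741 and 2396 against 2484 to 5608 (median 4060). The slopes, in log2 units per unit of the index, were -1.25 for Rbm15, -0.97 for Rbm41, -0.75 for Rbm26, -0.55 for Rbm6 and -0.51 for Srsf4, and 0.74 for Sf3b5, 0.68 for Rbm7, 0.66 for Snrpb2, 0.48 for Snrpb and 0.36 for Rbm18. Without the 4 mice, 33 of 75 members passed beside 41.3% of all genes. Within the 17 shallow libraries none did, beside 2.23% of 8820 genes, with 14 of 75 at an unadjusted p under 0.05 against 10.5% of all genes. The index itself was lower in shallow libraries (-0.316 to -0.0127, median -0.254) than in deeper ones (-0.159 to 1.478, median 0.011). Its slopes therefore also carry differences between these 2 sets, above all without the 4 mice. With the shallow set as a term in all 60 mice, 46 of 75 members passed, beside 5925 of 8535 genes. By family, without the 4 mice, 8 of 11 SR, 5 of 15 hnRNP and 4 of 8 Snrp genes passed. Of SF3, PRPF and RBM genes, 0 of 7, 2 of 11 and 14 of 22 passed there. The median SF3 slope was 0.19 over all 60 mice, with 4 of 7 above 0. Without the 4 mice it was 0.20, with 7 of 7 above 0. The index spans less without these mice, so a lost call does not show a smaller slope. In the fit over all 60 mice, where 76.9% of all genes passed, the pathway genes outside the rule gave 23 of 34 spliceosome genes (17 higher), 9 of 13 SR kinases and SR-related genes (2 higher) and 9 of 12 exon junction complex and NMD genes (5 higher), among them the kinase Smg1 at -1.49 and the large SR-related protein gene Srrm2 at -1.15.

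The shallow libraries stood apart from the deeper ones in a comparison added after seeing the data. Here 36 of 75 members passed (limma), 17 higher and 19 lower in shallow libraries, against 53% of all genes (25.3% higher, 27.7% lower). With the 3′ bias index as a further term, 13 passed, 10 higher and 3 lower, against 17.5%. Rbm15 ran from 158 to 399 in deeper libraries (median 309) and from 364 to 718 in shallow ones (median 544), a difference of 0.83 (SE 0.078, limma adjusted p = 1.40e-13). Tra2b ran from 110 to 375 (median 217) and from 238 to 397 (median 315), a difference of 0.55 (SE 0.075, limma adjusted p = 1.76e-08). The ranges of these 2 genes overlapped little in the first case and widely in the second. Rbm14 (0.38), Rbm10 (0.38) and Rbm6 (0.38) were also higher, and Snrpd3 (-0.40), Snrpert (-0.45) and Rbm18 (-0.18) were lower. By mouse number the shallow libraries were mouse 26 and every mouse from 41 to 56. The 3′ bias index was -0.0127 in mouse 26 and -0.316 to -0.170 in mice 41 to 56. How the shallow libraries were made was not given in the sources used here, and depth and any difference in handling cannot be told apart.

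Members were positively correlated with each other more than genes at large. Over 2775 pairs the median Pearson r of log2 values across the 60 mice was 0.133, against 0.0017 over pairs of all genes. It was above 0.5 in 14.9% of member pairs and under -0.5 in 4.4%, against 11.8% and 10.6%. With the 3′ bias held fixed the members' median was 0.127. Within families it was 0.506 for Snrp genes (0.351 with the bias fixed), 0.473 for SR genes (0.44), 0.215 for hnRNP genes (0.264), 0.196 for SF3 genes (0.283), 0.162 for RBM genes (0.139) and 0.151 for PRPF genes (0.174). These pairs share mice, depth and RNA quality, and the values are descriptions. The highest were Sf3b6 with Snrpert at 0.904, Sf3b1 with Hnrnpu at 0.873 and Rbm39 with Hnrnpa2b1 at 0.866. The lowest were Prpf8 with Snrpert and with Sf3b6, both at -0.875.

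**Figure D5:**
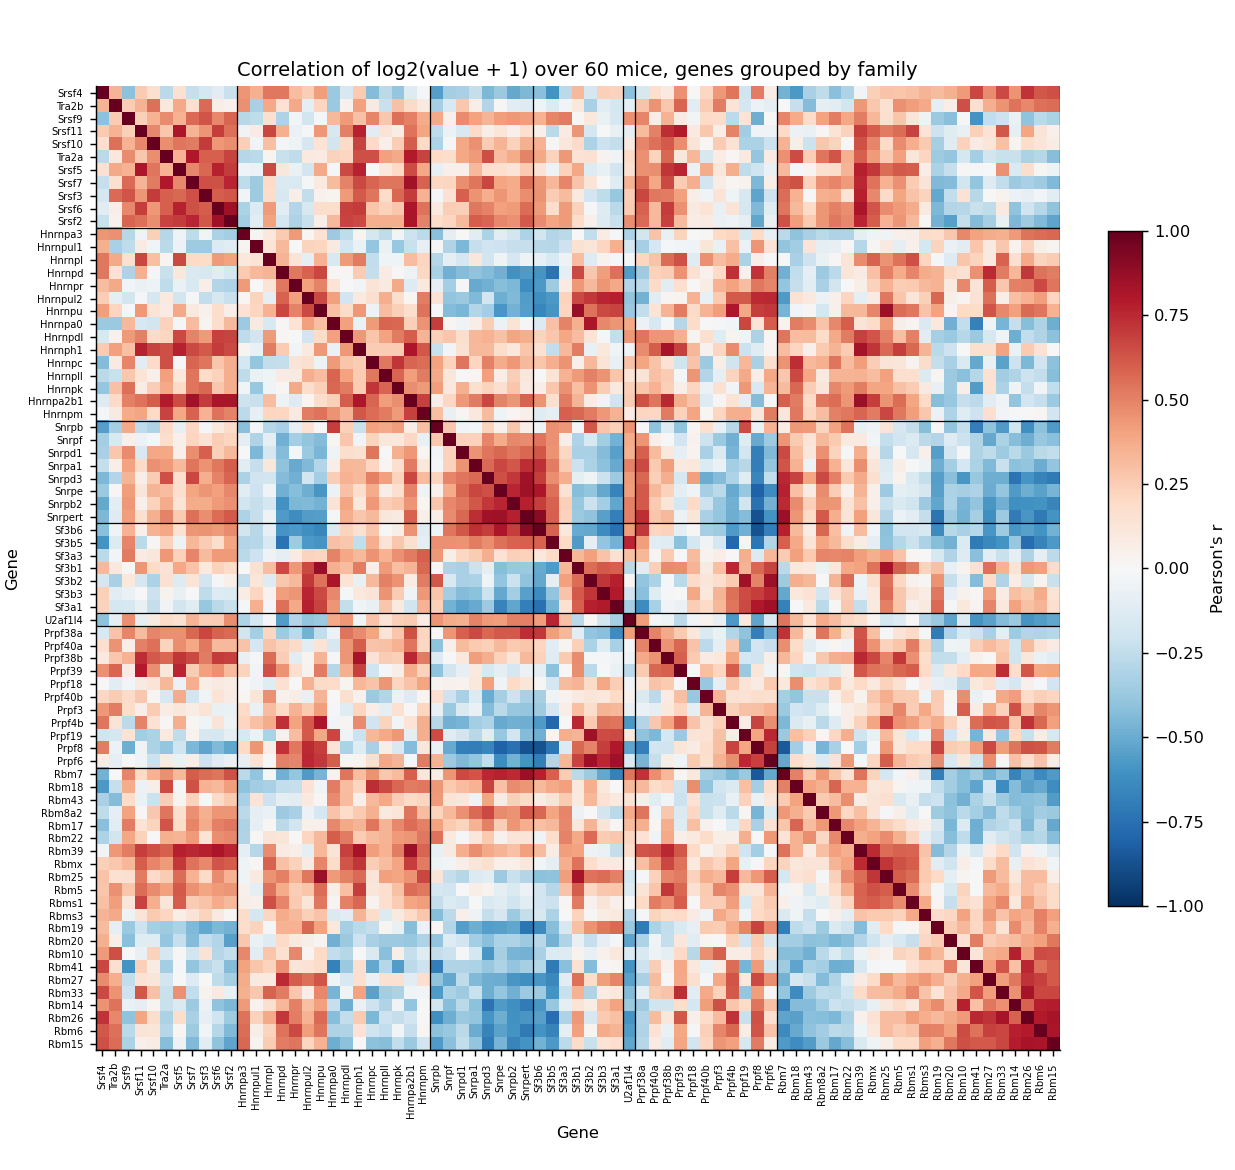
Pearson r of log2 normalized reads over 60 mice for all pairs of the 75 members, grouped by family and ordered within each family by the leading eigenvector. The SR block (median r 0.473) and the Snrp block (0.506) are mostly positive, and Prpf8 runs against the Snrp genes.

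Within the SR family the closest pair was Srsf2 with Srsf6 (r = 0.848), followed by Srsf5 with Srsf11 (0.81) and Srsf7 with Tra2a (0.80). The promoters of the closest pair are shown, from 250 bases before to 50 after the start in RefSeq (GRCm38.p6). They run 5′ to 3′ on the strand of the gene, and their part in the correlation was not tested. Capitals mark matches on either strand to 4 motifs, the GC box GGGCGG, the CCAAT box, the TATA-type TATAAA and the CRE-type TGACGT, some of which abut or overlap. Srsf2 (chr11:116853045-116853344, minus strand) held 7 matches and Srsf6 (chr2:162931258-162931557, plus strand) held 3.
Srsf2: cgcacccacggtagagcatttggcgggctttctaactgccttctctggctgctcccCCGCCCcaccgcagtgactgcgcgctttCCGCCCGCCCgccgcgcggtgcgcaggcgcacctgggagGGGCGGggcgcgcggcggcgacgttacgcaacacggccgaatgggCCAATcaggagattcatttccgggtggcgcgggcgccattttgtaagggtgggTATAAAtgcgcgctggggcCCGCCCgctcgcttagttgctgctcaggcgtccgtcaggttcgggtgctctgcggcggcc
Srsf6: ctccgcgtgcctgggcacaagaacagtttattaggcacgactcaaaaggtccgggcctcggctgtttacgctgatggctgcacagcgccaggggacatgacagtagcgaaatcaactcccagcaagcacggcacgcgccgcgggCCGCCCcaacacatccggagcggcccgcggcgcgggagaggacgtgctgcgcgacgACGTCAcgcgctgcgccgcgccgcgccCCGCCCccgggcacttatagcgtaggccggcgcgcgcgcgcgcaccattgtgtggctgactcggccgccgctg

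Promoters could be matched for 63 of 75 members. GGGCGG was found in 38 of them (60.3%), against 38.2% of 27025 genes, and in 10 of 11 SR genes. A gene counted where any of its promoters of this length held the motif. The 27025 are all genes with a RefSeq promoter and not only those of the gene table, so the shares do not compare members with other striatal genes. CCAAT was found in 32 (50.8%, against 41.1%), with 4 SR genes. TGACGT was found in 14 (22.2%, against 8.37%), with 5 SR genes, and TATAAA in 9 (14.3%, against 15.7%), with Srsf2 and Srsf3 the only SR genes. A match is a match of letters and says nothing of binding.

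Correlations of 3 pairs of partners could be tested. Srsf5 and Clk1, whose product phosphorylates SR proteins, gave r = 0.788 and Spearman's rho = 0.738 (two-sided permutation p = 2e-05 for both, the smallest that the permutations can give, Benjamini-Hochberg adjusted p = 3e-05). The r was 0.743 without the 2 mice furthest from the median of Srsf5, 0.784 within deeper and 0.803 within shallow libraries. Sf3b1 and Prpf8 gave r = 0.576 and rho = 0.620 (permutation p = 2e-05 for both, adjusted p = 3e-05), with 0.564 without 2 mice, 0.667 in deeper and 0.478 in shallow libraries. These permutations test a correlation against 0 and not against other pairs of genes. Over the 60 mice r was above 0.5 in 14.9% of member pairs and in 11.8% of all gene pairs. Tra2a and Tra2b gave r = 0.103 and rho = 0.0494 over all mice (permutation p = 0.430 and 0.703, the adjusted values being the same), and 0.00651 without 2 mice. Within the deeper libraries their r was 0.517 and within the shallow ones 0.588, so both sets gave a higher value than the pooled mice. Tra2b was higher in shallow libraries, as given above. Over the 60 mice the genes most like Tra2b were Hadhb (r = 0.805), Sycp2 (0.804) and Naa16 (0.797), and those most like Sf3b1 were Hnrnpu (0.873), Rbm25 (0.823) and Brd8 (0.771).

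The position of the members in gene networks was computed for coexpression, for cosplicing, in which a pair is linked when the exon profiles of both genes differ between the same mice (Mantel correlation of cosine distances), and for CoSplicEx, the same with Canberra distances, which also carry the level. Connectivity was the sum of absolute correlations raised to the power of 6. In coexpression 6 of 75 members (8%) were in the top 10% of genes, led by Snrpert, Prpf8 and Rbm7 at percentiles 98.4, 97.97 and 95.3, with Prpf18 (3.78) and Hnrnpul1 (4.18) at the bottom. In cosplicing 10 members (13.3%) were in the top 10%, led by Prpf8 at 99.9 and by Rbm15 and Prpf4b, both at 96.3. Without the 4 biased mice Prpf8 stood at 96.2, Rbm15 at 31.7 and Prpf4b at 38.8, and 5 members were in the top 10%. With the bias index held fixed in all 60 mice these genes stood at 97.95, 99.4 and 98.7, and without mouse 63 alone at 99.7, 93.8 and 94.5. In CoSplicEx 4 members (5.33%) were in the top 10%, led by Prpf8 (95.7), Rbm27 (95.1) and Rbm26 (94.6), and Srsf3 (0.397) and Hnrnpa2b1 (6.60) were lowest. Without the 4 biased mice these 3 leaders stood at 98.7, 72.05 and 96.6, and 6 members were in the top 10%. With the bias index held fixed they stood at 99.96, 81.7 and 89.98. Prpf8 was the only member among the 3 most connected of all 3 networks. Leaving out 6 mice at a time gave 5 to 7, 7 to 11 and 4 to 5 members, and these shares have no test.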

How the data were processed

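PolyA+ RNA of mouse striatum was sequenced in 60 libraries. Per the labels and the study's methods, the authors aligned reads to mouse genome build NCBI m37 with Bowtie 0.12.7, which does not split reads over junctions, and counted them on Ensembl union exon models. The deposited gene values are a normalized signal, raw reads times 1 upper-quartile factor per library (edgeR 3.4.2 in R 3.0.2). All of them (100%) came out as whole reads within 0.01 reads once that factor was divided out, with a largest deviation of 6.53e-05. The deposited exon values are a score, normalized reads rounded to whole numbers, with row starts in m37. Symbols were found for 8858 IDs (97.7%). No column of unmapped samples was present. The members and lists were chosen with earlier results of these data known.

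Genes averaging at least 10 were tested on log2(value + 1) with limma 3.58.1 (trend option, response and sex as terms, Benjamini-Hochberg over all genes tested, adjusted p under 0.05), and exon rows averaging at least 10 with its diffSplice. edgeR 4.0.16 (quasi-likelihood) and DESeq2 1.42.0 on the recovered reads were alternatives, in R 4.3.3. A fold change on this scale understates the change of low genes. On simulated responder against non-responder data with 200 genes or rows changed by 0.5 (log2), limma recovered 90% with 9 false calls (8459 genes), edgeR 90% with 8 (8535 genes) and diffSplice 88% with 10 (62420 rows). The simulation held no 3′ bias and no shift of shallow libraries beyond depth, and for diffSplice only well-covered rows were changed. The planted change was also larger than any member's fitted response difference, so these rates check the code and do not give the power in these data. Each mouse is 1 biological replicate. No family or selection line of a mouse entered the tests, which took the mice as independent. No 2 libraries agreed within sampling noise (smallest chi-square per gene 3.021 over 1770 pairs). Reads carry no molecular identifiers, so counting errors cover counting only. The counting was not stated to use strand, so overlapping antisense genes cannot be told apart. Exon rows were matched to GENCODE M21 (GRCm38) by the spacing of their starts where at least 80% of a gene's rows matched (4 genes under). Python 3.11.15, numpy 2.4.6, scipy 1.17.1 and pandas 2.3.3 were used.

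Named were, per comparison, up to 10 members of smallest p past the threshold, or otherwise the 8 of smallest p; per family the 2 highest and the lowest per kilobase and the extremes of CV; the 10 largest CVs; the 3 most and 2 least connected per network; the 5 exon rows of smallest p and the 10 most variable; unproductive rows of SR genes; textbook members and fixed pairs; and pathway genes past the test. The unproductive rows of other families, the correlated pairs and the members just named beside a mouse or a shallow library were chosen after their values were seen.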

Additional observations from a re-analysis of the deposited data

How the results depend on the processing

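No paired analysis was possible because the replicate numbers only follow the order of deposit. Of 419 values of 39 named results under the alternatives, 406 kept direction and side of the threshold. Of the others, 8 lost the threshold, 1 passed it and 4 reversed. No named result by response, sex, interaction or exon usage was called in the main fits. These could keep their side by staying uncalled, and only the called slopes with 3′ bias could lose the threshold. The 406 therefore does not measure how stable the called results were. The count of members called by response rose from 0 to 1 without mice 4, 5, 62 and 63 and with the shallow set as a term, an alternative chosen after seeing the data. The count that followed the 3′ bias went from 53 to 31 among members averaging at least 500 (fewer members tested), 33 without the 4 mice and 0 in the shallow libraries alone (fewer mice). Among genes averaging at least 500, 2 of 51 members (3.92%) were in the top 10% of coexpression and 5 of 51 (9.80%) of cosplicing. Cosplicing also gave 5 on log2 values, 5 without the 4 mice and 6 with the bias held fixed; the cause was not tested. The r of Tra2a with Tra2b was 0.517 (permutation p = 0.00043) in the deeper libraries. Within the shallow libraries 4 values reversed, the sex difference of Hnrnpul1 (0.016) and the bias slopes of Sf3b5 (-1.14), Srsf4 (0.10) and Snrpb (-0.59); the cause was not tested. The median CV of members lay between 0.129 and 0.150 under its alternatives. The counting CV was largest for Snrpf (0.189), Rbm20 (0.107) and Rbm19 (0.102) among genes, and rows of short exons had the lowest values among exon rows.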
